A study of Mus musculus with 4 samples.

Results

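The granzyme and perforin genes Gzma, Gzmb, Gzmc, Gzmd, Gzme, Gzmf, Gzmk and Prf1 were followed as a set of 8 named genes among 13518 genes and 13213 cells measured by droplet single-cell RNA sequencing. All 8 were found in the deposited table. The cells came from tumours of MC38, a mouse colon adenocarcinoma line, implanted orthotopically in C57BL/6 mice. Mice of the vehicle arm received vehicle, according to the treatment protocol, although that sample's own entry calls it untreated. Mice of the anti-PD-1 arm received the antibody 3 times a week for 5 doses. Mice of the third arm received ATT-I (Atractylenolide I, a plant sesquiterpene lactone) daily at 50 mg/kg, and mice of the combination arm received both agents. In each arm, tumours were taken 2 weeks after treatment began and 5 of them were pooled to make 1 library. Tumour-bearing C57BL/6 hosts with their own immune system are common to all 4 arms, and mice within a pool cannot be separated. With 1 library per arm there was no test across samples, and each 95% interval below covers counting error only.

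Cytotoxic T cells and natural killer (NK) cells kill by releasing granules onto a bound target. Perforin, the product of Prf1, forms pores in the target membrane, and granzymes are serine proteases that enter through them. Granzyme B cleaves after aspartate and activates caspases, whereas granzymes A and K cleave after basic residues. Granzymes C, D, E and F are rodent genes that lie beside Gzmb, are known from strongly stimulated T cells and NK cells, and have less well defined substrates. Gzmk is known in tumour T cells as a marker of effector-memory cells, and granzyme messenger RNA can be held in a cell without the protein being released.

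The members lie at 3 loci in genome build GRCm38 with the GENCODE vM21 annotation. Gzme (chr14:56117626-56120625), Gzmd (chr14:56129556-56132608), Gzmf (chr14:56205263-56211417), Gzmc (chr14:56231441-56234656) and Gzmb (chr14:56258838-56262260) are all on the minus strand, have 5 exons each and span 144.6 kb together with Gzmg and Gzmn. Gzma (chr13:113093825-113100981) and Gzmk (chr13:113171608-113225908) are on the minus strand with 6 exons each, and Prf1 (chr10:61297833-61304680) is on the plus strand with 3 exons. The Gzmk gene model overlaps Esm1, and that of Gzmf overlaps the antisense gene Gm4022. Whether reads were counted by strand is not given in the sources used here, so reads of these overlapping pairs may not be separable.

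The sequences just upstream of Gzmc, Gzmd, Gzme and Gzmf are shown because, of 28 pairs of members, the 6 pairs among these 4 genes had the highest ratios of shared cells, and that of Gzmb is shown because Gzmb lies beside them without the sequence run they share. They are the 250 bases before each RefSeq start in GRCm38.p6, on the minus strand of chromosome 14, written 5′ to 3′. The windows are chr14:56234658-56234907 for Gzmc, chr14:56132594-56132843 for Gzmd, chr14:56120626-56120875 for Gzme, chr14:56211408-56211657 for Gzmf and chr14:56262335-56262584 for Gzmb. Capitals mark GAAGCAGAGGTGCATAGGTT, a run of 20 bases that Gzmc, Gzmd, Gzme and Gzmf have in common.
Gzmc: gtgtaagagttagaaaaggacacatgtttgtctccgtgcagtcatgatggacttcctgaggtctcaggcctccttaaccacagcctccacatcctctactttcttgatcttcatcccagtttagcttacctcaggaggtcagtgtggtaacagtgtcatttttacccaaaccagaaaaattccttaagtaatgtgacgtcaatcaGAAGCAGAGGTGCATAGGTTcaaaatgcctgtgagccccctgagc
Gzmd: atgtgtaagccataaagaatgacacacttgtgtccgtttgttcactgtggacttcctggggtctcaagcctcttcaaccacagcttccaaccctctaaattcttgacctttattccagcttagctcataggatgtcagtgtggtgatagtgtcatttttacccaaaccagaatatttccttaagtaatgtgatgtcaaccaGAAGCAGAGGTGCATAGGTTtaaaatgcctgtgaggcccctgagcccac
Gzme: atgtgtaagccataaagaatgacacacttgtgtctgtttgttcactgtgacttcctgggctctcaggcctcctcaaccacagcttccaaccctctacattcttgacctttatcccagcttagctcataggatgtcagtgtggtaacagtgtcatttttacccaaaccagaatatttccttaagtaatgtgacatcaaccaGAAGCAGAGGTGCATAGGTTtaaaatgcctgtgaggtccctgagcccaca
Gzmf: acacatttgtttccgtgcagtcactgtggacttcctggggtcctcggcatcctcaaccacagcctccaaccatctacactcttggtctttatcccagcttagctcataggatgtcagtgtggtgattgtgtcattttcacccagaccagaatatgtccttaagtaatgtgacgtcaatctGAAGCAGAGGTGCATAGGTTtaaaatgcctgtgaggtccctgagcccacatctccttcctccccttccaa
Gzmb: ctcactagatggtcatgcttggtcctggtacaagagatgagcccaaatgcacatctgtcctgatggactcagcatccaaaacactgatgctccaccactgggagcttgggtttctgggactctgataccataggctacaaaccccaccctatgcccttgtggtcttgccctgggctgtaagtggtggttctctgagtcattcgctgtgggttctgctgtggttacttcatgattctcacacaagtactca
The run ended 25, 29, 30 and 50 bases before the start of Gzmc, Gzmd, Gzme and Gzmf, and it was found in 5 of 32851 RefSeq promoter windows on either strand, with Gzmg beside these 4. The upstream 250 bases of Gzmd and Gzme were 94.8% identical, those of Gzmc matched Gzmd and Gzme at 81.3% and 81.8%, and those of Gzmf matched the other 3 at 71.5% to 75.7%. Gzmb matched these 4 at 44.6% to 50.2%, close to the 46.6% to 50.6% of Prf1 with Gzma and Gzmb. On either strand, TGACGTCA (a cyclic AMP response element) occurred in the Gzmc and Gzmf windows and in 1.55% of all promoter windows, and TGANTCA (an AP-1 motif) occurred among the members only in Gzmb and in 6.75% of all windows. TGTGGT, a Runx core motif, was present in 7 of the 8 members, all but Gzmk, and in 14.1% of all windows. GGAAGT, an Ets core motif, was present in 6 members and in 19.7% of all windows. AGGTGT, a T-box half-site, was present in 3 members and in 11.8% of all windows. The Runx and Ets counts include Gzmc, Gzmd, Gzme and Gzmf, whose windows are alike, so these 4 are not separate occurrences. These matches describe letters in the windows and not bound sites.

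Transcript ends were also compared, because closely related genes can share reads. Over the last 500 bases, the longest transcripts of Gzmd and Gzme were 89.4% identical, and those of Gzmd and Gzmf 84.1%. Of the 451 stretches of 50 bases in that end, 93 in Gzmd (20.6%), 82 in Gzme (18.2%) and 32 in Gzmf (7.10%) also occurred in another granzyme, and 0 did in Gzmc, Gzma, Gzmb, Gzmk or Prf1. The genes sharing these stretches include Gzmg and Gzmn beside Gzmd, Gzme and Gzmf, so single UMIs of Gzmd, Gzme and Gzmf are uncertain as to which of the 5 genes they came from, whereas Gzmc counts do not carry this uncertainty.

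The library of the vehicle arm held 155 cells, that of the anti-PD-1 arm 12562, that of the ATT-I arm 297 and that of the combination 199, with median depths of 16129, 7148, 6828 and 23927 unique molecular identifiers (UMIs) per cell, and 1 barcode was found in 2 libraries. Cells were gated by transcript counts. The CD8 gate needed at least 3 UMIs of Cd8a and Cd8b1 together and at least 4 times the UMIs of Cd4, and held 48, 8385, 108 and 118 cells in that order. The CD4 gate needed more Cd4 than CD8 UMIs and was split by Foxp3, the regulatory T cell factor, into Foxp3-negative (55, 947, 90 and 39 cells) and Foxp3-positive cells (19, 393, 18 and 26). The NK gate needed Ncr1, no Cd3e and neither coreceptor gate, and held 17, 39, 4 and 1 cells. Apart from Cd3e and Ncr1, which are in the gate rules, 4 of 4 T cell markers were found in the CD8 gate of every library, with summed levels of 31.5 to 59.3 UMIs per 10000, against 1.08 to 11.1 in the NK gates. The 4 remaining NK markers were found in all NK gates at 31.03 to 58.7, against 2.81 to 7.23 in the CD8 gates. In the anti-PD-1 NK gate, Cd3d was found in 82.1% of cells, Trbc2 in 76.9%, Cd3g in 71.8% and Trac in 64.1%, so these cells cannot be told apart from T cells with Ncr1 in which Cd3e was not detected. The libraries also stood apart in depth and in the detection of Mki67. In the CD8 gate the median cell held 24502, 8043, 9255.5 and 28679.5 UMIs, and Mki67, a marker of dividing cells, was found in 93.8%, 35.7%, 39.8% and 90.7% of cells. Mki67 was scored without thinning, so these shares cannot be told apart from depth. In the anti-PD-1 CD8 gate the median was 11831 UMIs in Mki67-positive and 7023.5 in Mki67-negative cells. Haemoglobin transcripts summed to 41.8 per 10000 in the ATT-I CD8 gate against 0.0164 to 0.676 in the others, and no gate in that library was chosen with them.

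Levels below are summed UMIs of a gene per 10000 summed UMIs of the cells. They are compared between gates or libraries for 1 gene at a time, because UMI counts were not divided by transcript length. In the anti-PD-1 library, which held most cells, the gates differed widely. Gzmb stood at 15.8 UMIs per 10000 in the CD8 gate (15.7 to 15.8), 37.4 in the NK gate (35.7 to 39.2), 8.58 in Foxp3-positive and 3.38 in Foxp3-negative CD4 cells, and 8.27 in cells of no gate. Prf1 stood at 4.33 in the CD8 gate and 7.81 in the NK gate, against 0.484 and 0.440 in Foxp3-positive and Foxp3-negative CD4 cells. The Gzmb level of Foxp3-positive CD4 cells thus came nearer to that of the CD8 gate than their Prf1 level did.

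Gzmk stood highest in the CD8 gate among these 4 gates, at 1.22 there, 0.322 in Foxp3-negative CD4 cells, 0.108 in the NK gate (5 UMIs) and 0.0683 in Foxp3-positive CD4 cells. Of all Gzmk UMIs of the library, 93.7% lay in the CD8 gate, which held 66.8% of cells, and 95.3% of Gzmf and 94.1% of Prf1 UMIs did as well. Gzma, the other granzyme gene of chromosome 13, stood instead at 26.1 in the NK gate, 2.90 in the CD8 gate, 0.814 in Foxp3-negative and 0.240 in Foxp3-positive CD4 cells.

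Among the chromosome 14 granzymes, Gzmc, Gzmd and Gzme were highest in the NK gate and Gzmf in the CD8 gate. Gzmc stood at 99.7 in the NK gate (96.8 to 102.6), 2.47 in Foxp3-negative CD4 cells, 1.54 in the CD8 gate and 0.644 in Foxp3-positive CD4 cells. Gzmd stood at 9.89 in the NK gate and 0.854 in the CD8 gate, and Gzme at 9.89 and 0.506. Gzmf stood at 4.53 in the CD8 gate, 1.52 in the NK gate and 1.26 in Foxp3-negative CD4 cells. In the 87 CD8-gate cells of this library that held Ncr1, Gzmc was at 32.1, Gzmd at 10.1, Gzme at 3.32 and Gzmf at 16.5, but single cells held 54.1%, 87.1%, 86.4% and 76.3% of these UMIs. Without the top cell of each gene the levels were 15.5, 1.36, 0.476 and 4.11. The whole CD8 gate without its top cell stood at 1.299, 0.734, 0.467 and 4.36. Gzmc and Gzmd thus stood above the whole gate, and Gzme and Gzmf were near it.

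**Figure D1:**
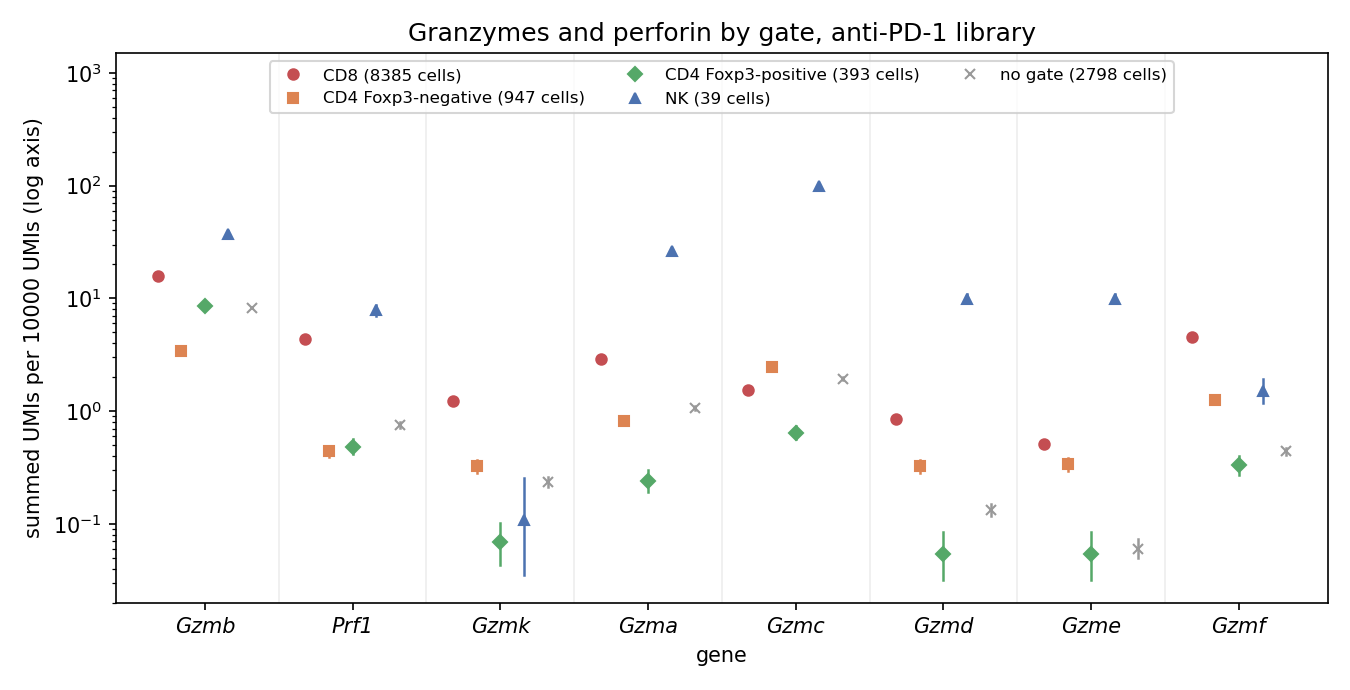
Summed UMIs per 10000 UMIs (log axis) of each member in 5 gates of the anti-PD-1 library, with exact Poisson 95% intervals; points are compared within a gene. The NK gate is highest for Gzma, Gzmb, Gzmc, Gzmd, Gzme and Prf1, and the CD8 gate for Gzmk (1.22) and Gzmf (4.53).

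Free RNA in droplets gives UMIs in cells that do not express a gene, so shares of cells with a UMI were set beside resting-like CD4 cells of the same library (Tcf7 present, Foxp3 and Mki67 absent), a cell type with few granules, of which 156 were found. At an equal 3000 UMIs per cell, Gzmb was found in 74.2% of CD8-gate cells (73.3 to 75.2) and 49.0% of the reference cells. Without thinning the shares were 88.5% and 64.1% at median depths of 8043 and 4751 UMIs. Prf1 was found in 50.0% against 9.09% and Gzmk in 27.1% against 4.90%, both far above the reference. Gzme was found in 3.43% against 0.699% and Gzmf in 17.2% against 12.6%. The reference held 143 cells at this depth and 3 Gzme UMIs before thinning, so its Gzme share rests on very few cells. The small Gzmf difference is uncertain for the same number of reference cells. Gzma (13.5% against 12.6%) and Gzmd (4.48% against 4.90%) were at the reference share, so single UMIs of these 2 genes cannot be read as expression. Gzmc was less frequent in the CD8 gate than in the reference, at 9.14% against 18.9%, so its single UMIs cannot be read as expression either. The reference did not lack Gzmc, whose level there was 3.598 per 10000, above the 1.54 of the CD8 gate. Of its 324 UMIs in the reference, 80% lay in 3 cells, and without the top cell the level was 2.158. Among reference cells with Gzmc, 72.5% held a single UMI before thinning.

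Member levels differed little between Mki67-positive and other cells of the anti-PD-1 CD8 gate, apart from Gzma and, by summed UMIs, Gzmc and Gzmd. Gzma was 3.78 per 10000 in Mki67-positive and 2.09 in Mki67-negative cells. Gzmb was 15.1 and 16.3, Prf1 4.24 and 4.41, Gzmk 1.26 and 1.19, and Gzmf 4.10 and 4.93 in the same order. Gzmc (1.17 and 1.88) and Gzmd (0.682 and 1.02) had lower summed levels in Mki67-positive cells. Among Mki67-negative cells, however, 1 cell held 24.6% of the Gzmc UMIs and 1 held 22.95% of the Gzmd UMIs. Without the top cell the levels lay closer together, at 1.108 and 1.423 for Gzmc and 0.639 and 0.783 for Gzmd. A larger share of Mki67-positive cells held 80% of the UMIs, at 3.81% against 0.686% for Gzmc and 1.87% against 0.593% for Gzmd. Regulatory T cells differed more, since Gzmb in Foxp3-positive CD4 cells was 5.94 with Mki67 and 11.5 without it.

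The members fell into 2 kinds by how many cells carried them. In the anti-PD-1 CD8 gate of 8385 cells, 80% of the UMIs of Gzmb lay in 2323 cells (27.7%), those of Prf1 in 2271 (27.1%) and those of Gzmk in 2186 (26.1%). For the other 5 genes the same share lay in 1.002% to 2.993% of cells, namely 251 cells for Gzmf, 211 for Gzma, 130 for Gzmc, 98 for Gzme and 84 for Gzmd. Most other carriers held a single UMI: 69.8% of Gzmc-positive and 61.4% of Gzmd-positive cells did, against 14.4% for Gzmb. The top cell alone held 1923 UMIs of Gzmc, 15.6% of the gate's total, and 968 UMIs of Gzmd, 14.1% of the total. Levels of these 5 genes therefore describe a small number of cells, and Gzmc averaged over cells rather than over UMIs was 0.862 per 10000 instead of 1.54.

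**Figure D2:**
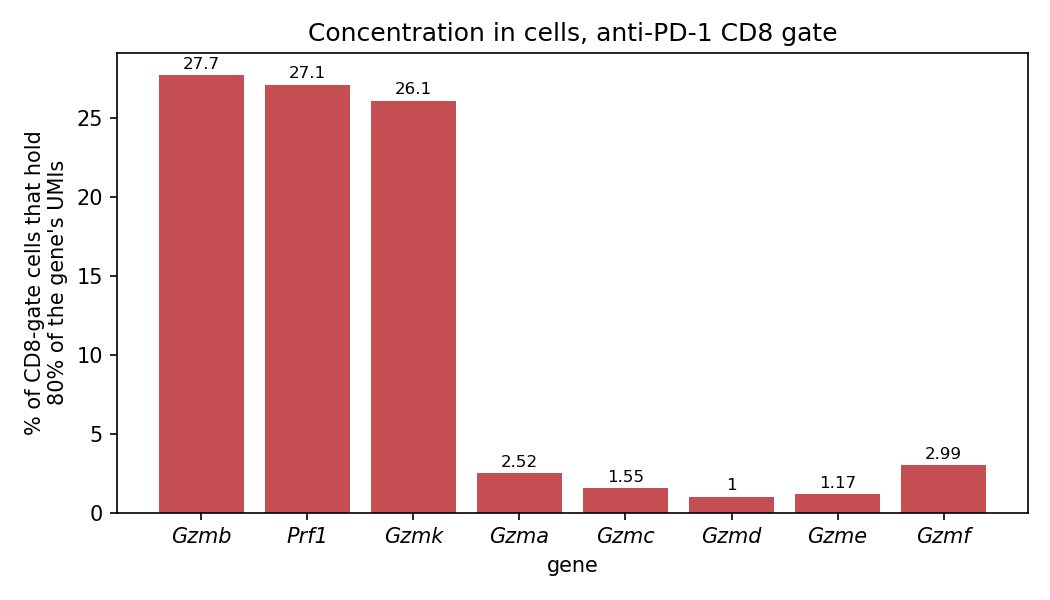
Percent of the 8385 CD8-gate cells of the anti-PD-1 library that together hold 80% of the UMIs of each member, taking the cells with most UMIs first (bars start at 0). Gzmb, Prf1 and Gzmk need 26.1% to 27.7% of cells, and the other 5 genes 1.002% to 2.993%.

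Cells that carried a chromosome 14 granzyme other than Gzmb held another of this group more often than independence would give. Most such cells still held only 1 of Gzmc, Gzmd, Gzme and Gzmf, as counted below. At 3000 UMIs per cell, 369 of 8231 CD8-gate cells held Gzmd and 282 held Gzme, and 143 held both, which is 11.3 times the 12.6 cells that independence would give. These 143 cells were 38.8% of the Gzmd cells (33.8 to 43.9) and 50.7% of the Gzme cells (44.7 to 56.7). As given above, the ends of these 2 transcripts share stretches, and the part of split reads in this overlap was not tested. Gzmc does not share such stretches, and its overlap with Gzmd was 124 cells, 3.68 times the expected 33.7, and with Gzme 102 cells, 3.96 times the expected 25.8. Gzmf was found in 50.7% of Gzmd cells and 56.4% of Gzme cells, against 17.2% of all cells.

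Pairs outside this group had lower ratios than pairs within it. Gzmc with Gzmf, the lowest of the 6 pairs within this group, gave 1.74, and Gzma with Gzmk, the highest of the remaining pairs, gave 1.497 (451 cells, 40.6% of Gzma cells). Gzmb with any other member gave 1.08 to 1.18, and a gene found in 74.2% of cells cannot reach a high ratio. The ceiling falls as a gene becomes commoner, so pairs with Prf1 or Gzmk are limited as well. Prf1 was found in 68.6% of Gzmd cells and 72.3% of Gzme cells, larger shares than held Gzmf, with ratios of only 1.37 and 1.45. Gzmk gave 1.04 with Gzmc, 0.929 with Gzmd, 0.967 with Gzme and 1.01 with Gzmf, and Gzma with Prf1 gave 0.963. Counting only cells with at least 2 UMIs of a gene, 56.0% of Gzmd cells held Gzme and the ratio was 39.1. At that threshold Gzmk was found with the chromosome 14 group less often than independence would give, at ratios of 0.589 with Gzmc (10 cells), 0.411 with Gzmd (5 cells), 0.197 with Gzme (2 cells) and 0.610 with Gzmf (31 cells). Under each of 7 settings of depth, threshold and gate, the 6 pairs among Gzmc, Gzmd, Gzme and Gzmf stood above all other pairs in this ratio. The ranking is partly set by the ceiling, which favours pairs of rarer genes. Of the 8231 cells, 1763 held 1 of these 4 genes, 256 held 2, 90 held 3 and 69 held all 4 (0.838%, exact interval 0.653 to 1.06). Except at the threshold of 2 UMIs, cells with a single UMI count as carriers here. For Gzma, Gzmc and Gzmd such UMIs cannot be read as expression, as given above. These are cells of 1 library and not replicates, and the numbers are a description.

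**Figure D3:**
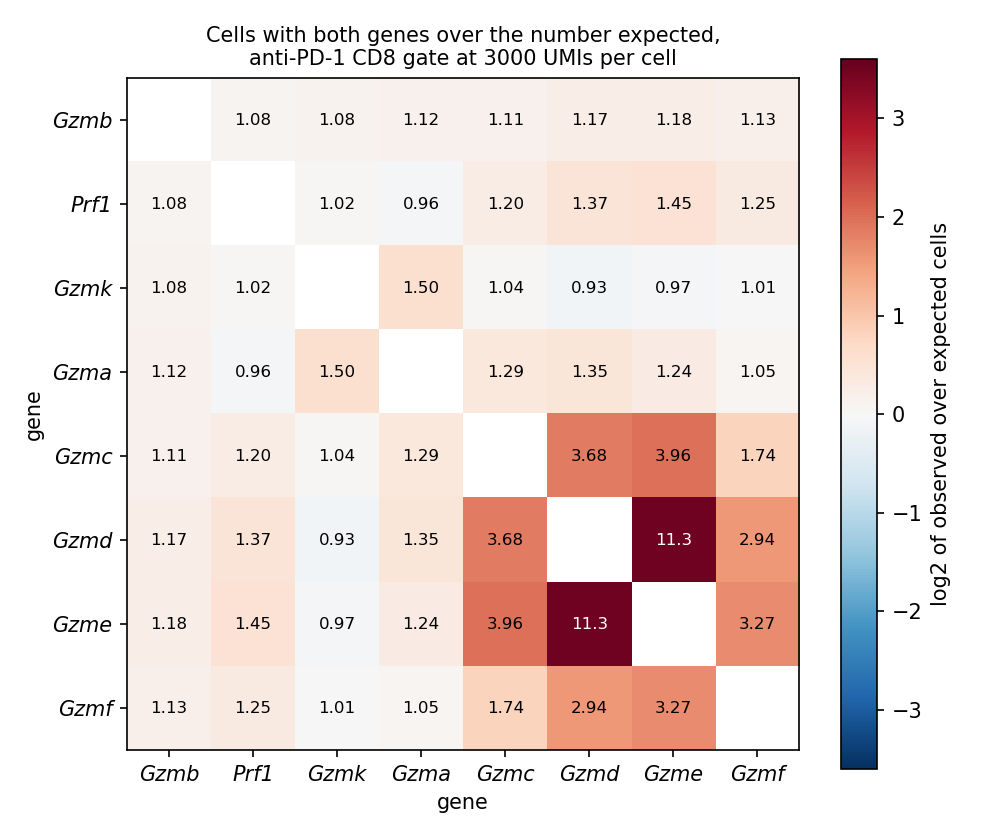
Number of CD8-gate cells of the anti-PD-1 library holding both genes of a pair, divided by the number expected if the genes were independent, at 3000 UMIs per cell (8231 cells); colour gives the log2 of the printed ratio. The block of Gzmc, Gzmd, Gzme and Gzmf reaches 1.74 to 11.3, and Gzma with Gzmk 1.497.

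In the smaller libraries the same cells can be counted singly. In the combination CD8 gate, 117 cells at this depth held Gzmc 8 times and Gzmd and Gzme 4 times each, with 3 cells holding both Gzmc and Gzmd and 2 holding both Gzmd and Gzme. Of 105 ATT-I cells, 1 held both Gzmd and Gzme and no other held either. Of 47 vehicle cells, 1 held Gzmd and 2 held Gzme, with 0 holding both. In the NK gate of the anti-PD-1 library, 9 of 38 cells held both Gzmd and Gzme out of 13 and 10 that held either.

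Cells were also described by the transcripts they held beside the gene that selected them. The 141 anti-PD-1 CD8-gate cells with at least 2 Gzmd UMIs at 3000 UMIs per cell carried Gzmf at 70.3 per 10000 against 1.81 in the 7862 cells with none. Gzmb was 45.5 against 14.2 and Prf1 14.4 against 3.68 in the same cells, whereas Gzmk was 0.804 against 1.35. They carried more Ifitm1, an interferon-inducible membrane protein gene (8.25 against 1.60), and less Tcf7, a factor of memory-like T cells (0.0709 against 0.310), and Ly6c2, a surface antigen of memory T cells (1.80 against 4.82). The NK receptor gene Ncr1 stood at 0.0709 in them against 0.0250, which rests on 3 UMIs (0.0146 to 0.207) and is within counting error. In the 197 cells with at least 2 Gzmc UMIs, Ncr1 stood at 0.288 (17 UMIs, 0.168 to 0.461) against 0.02095 in the 7479 without. The 710 cells with at least 2 Gzmk UMIs differed from the 5997 without in other ways, with Gzma at 7.23 against 1.496, Ly6c2 at 7.55 against 4.15, Gzmf at 1.78 against 3.49 and Ifitm1 at 0.873 against 1.97. The 511 Gzma cells carried Gzmb at 31.9 against 13.5 and Gzmk at 3.03 against 1.195.

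The genes with the most similar pattern to each member were taken as the 5 non-members with the highest Pearson r of ln(1 + UMIs per 10000) over the 8231 cells, among 7910 genes. The cells share a library and a fixed depth, and all coefficients were low. Gzmd was followed by Spp1 (r of 0.195), Ifitm2, AA467197, Serpinb9b and Ifitm1. Gzmc, Gzme and Gzmf had Ifitm2, Spp1, AA467197 and Ifitm1 in their lists, with the highest r at 0.249 for Gzmf with Ifitm2. Gzmk had a different list of Ccl5, a T cell chemokine gene (0.192), Ly6a, Ccr2, Ms4a4b and Cd8b1. Gzma had Ifitm2 (0.111), Itgb7, Ccl5, Epsti1 and Ly6c2. Gzmb had S100a6 (0.221), Lgals3, S100a4, Ifitm2 and AW112010, and Prf1 had S100a4 (0.249), Spp1, Irf8, Lgals1 and AC163354.1. Over the 117 combination CD8-gate cells at this depth, r for these pairs ran from -0.0632 (Prf1 with Spp1) to 0.536 (Gzmf with Ifitm1). It was 0.0282 there for Gzmf with Ifitm2 and 0.199 for Gzmd with Spp1.

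Within the CD8 gate the 4 libraries were compared to see whether cytotoxic transcripts stood higher under each treatment. The 5 comparisons share libraries and are not independent of each other. A member was counted as measured where at least 10% of gate cells of either library held a UMI, and as higher or lower at 1.5-fold. The level of Gzmb was 7.55 (7.07 to 8.05) in vehicle, 15.8 (15.7 to 15.8) with anti-PD-1, 5.52 (5.13 to 5.94) with ATT-I and 9.29 (8.98 to 9.61) with both agents. Anti-PD-1 was thus highest, the combination next, then vehicle and ATT-I, and no 2 of these intervals overlap. In vehicle, however, 1 cell held 28.8% of the Gzmb UMIs. Without the top cell of each library the levels were 5.56, 15.65, 4.95 and 8.31 in the order given, so vehicle and ATT-I lay closer together. Prf1 was 2.33 (2.07 to 2.62), 4.33 (4.28 to 4.37), 3.07 (2.77 to 3.38) and 2.90 (2.73 to 3.08) in the same order. Its anti-PD-1 level was again the highest and its vehicle level the lowest, and ATT-I and the combination did not differ beyond counting error. These are orders of summed levels. By the mean over cells, the Prf1 log2 ratio was -0.16 for ATT-I against vehicle and 0.51 for the combination against ATT-I.

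Gzmk was 0.615 (0.485 to 0.769) in vehicle, 1.22 (1.199 to 1.248) with anti-PD-1, 0.778 (0.634 to 0.946) with ATT-I and 0.703 (0.620 to 0.795) with both agents. Anti-PD-1 stood above the rest, whose intervals overlap. Gzma was 0.759 (0.614 to 0.928) in vehicle, 2.90 (2.87 to 2.94) with anti-PD-1, 2.50 (2.23 to 2.78) with ATT-I and 3.19 (3.01 to 3.38) with both agents. Vehicle stood apart for Gzma, but 1 cell held 62.1% of its 95 Gzma UMIs in vehicle, and 1 cell held 65.2% of the 1165 in the combination, which had 1.13 without that cell.

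Gzmc was 0.152 (0.0914 to 0.237) in vehicle, 1.54 (1.51 to 1.57) with anti-PD-1, 1.24 (1.06 to 1.45) with ATT-I and 0.635 (0.556 to 0.722) with both agents. Gzmd was 0.0799 (10 UMIs), 0.854, 0.0771 (10 UMIs) and 0.3996 in that order. Gzme was 0.104 (13 UMIs), 0.506, 0.0462 (6 UMIs) and 0.216. Gzmf was 1.01 (0.838 to 1.198), 4.53 (4.48 to 4.58), 1.40 (1.21 to 1.62) and 1.68 (1.55 to 1.82). Anti-PD-1 was highest for all 4 genes, and the combination was second for all but Gzmc, although its Gzmf interval overlaps that of ATT-I. In the 3 small libraries these levels rest on few cells. In vehicle, 1 cell held all Gzmd UMIs and 88.1% of those of Gzmf, and in ATT-I, 1 cell held all UMIs of Gzmd, 1 held all of Gzme and 1 held 50.3% of those of Gzmc.

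**Figure D4:**
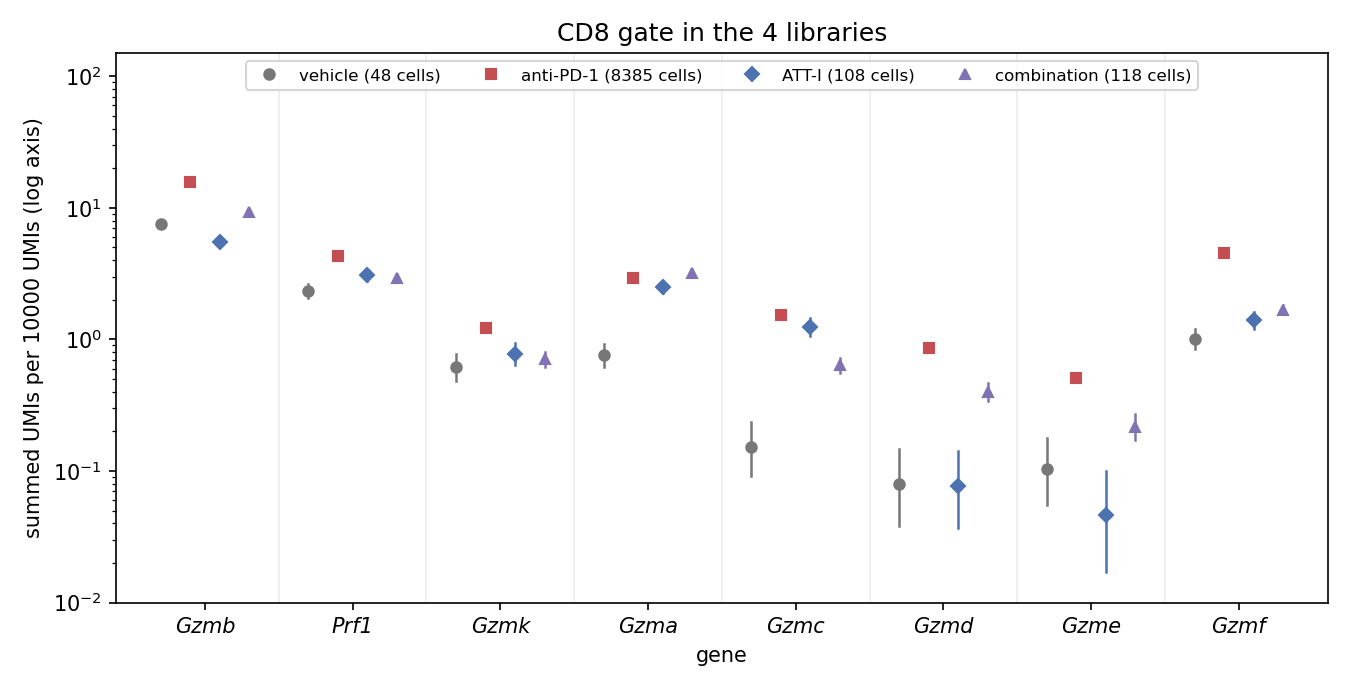
Summed UMIs per 10000 UMIs (log axis) of each member in the CD8 gate of the 4 libraries, with exact Poisson 95% intervals that cover counting error only; points are compared within a gene. Anti-PD-1 is highest for 7 of 8 members, and Gzma is highest in the combination at 3.19.

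Anti-PD-1 against vehicle gave a higher level for every measured member. Of the 7 measured members, 7 were at least 1.5-fold higher and 0 lower, where 10.6% of 9080 measured genes were higher and 34.7% lower. The median gene had a log2 ratio of -0.30, and relative to it 22.4% of genes were higher and 21.3% lower, with all 7 members still higher. The log2 ratio was 1.06 (0.97 to 1.15) for Gzmb, 0.89 (0.73 to 1.06) for Prf1, 0.99 (0.67 to 1.34) for Gzmk and 1.94 (1.65 to 2.24) for Gzma. It was 3.34 (2.70 to 4.07) for Gzmc, 2.29 (1.51 to 3.20) for Gzme and 2.17 (1.92 to 2.43) for Gzmf. Gzmd, found in too few cells to be counted as measured, stood at 3.42 (2.54 to 4.48). Depth and the share of Mki67-positive cells move with this contrast. Within Mki67-positive cells 7 of 7 were again higher, with 1.06 for Gzmb and 0.95 for Prf1. Among cells of at least 10000 UMIs, Gzmb was at 1.16 and Prf1 at 1.12. Summed NK markers in the CD8 gate were 7.26 in anti-PD-1 and 4.47 in vehicle. Ncr1 was found in 87 of 8385 and 0 of 48 cells, and 48 cells are too few to show a difference in its share. The part of NK-marker cells in the Gzmc, Gzmd, Gzme and Gzmf values was not tested. Without the top cell of the gene in each library the log2 ratio was 5.15 for Gzmf, 3.26 for Gzme and 3.25 for Gzma, each larger than with it, because single cells held most of the vehicle UMIs of these 3 genes.

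ATT-I against vehicle was mixed. Of 7 measured members, Gzmc and Gzma were higher and Gzme was lower, where 7.82% of 9131 measured genes were higher and 34.4% lower. Gzmc was higher by 3.03 (2.34 to 3.80), or 2.45 without the top cell of each library, and Gzma by 1.72 (1.38 to 2.06). The Gzme ratio was -1.17, with an interval that spans 0 (-2.85 to 0.33). Gzmb stood at -0.45 (-0.59 to -0.31), Prf1 at 0.39, Gzmf at 0.48 and Gzmk at 0.34. Without the top cell of each library Gzmf was at 2.82 and passed 1.5-fold. It was at -0.43 by the mean over cells and at -0.14 without the 5% of cells with the most UMIs, so its sign depended on the setting. Relative to the median gene, itself at -0.30, 5 members were higher and 1 lower, against 17.4% and 20.2% of genes. Haemoglobin transcripts moved with this contrast (41.8 against 0.0479 per 10000), and their part in it was not tested.

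The combination against vehicle gave 4 of 7 measured members higher and 0 lower, where 6.62% of 9310 measured genes were higher and 20.9% lower. These were Gzma (2.07, 1.77 to 2.39), Gzmc (2.07, 1.39 to 2.82), Gzme (1.06, 0.20 to 2.03) and Gzmf (0.74, 0.46 to 1.03, or 3.23 without the top cell of each library). Prf1 (0.32), Gzmb (0.30) and Gzmk (0.19) stayed within 1.5-fold. The vehicle and combination CD8 gates were close in median depth and in the share of Mki67-positive cells, given above. Relative to the median gene, at -0.12, the backgrounds were 9.41% and 16.5%.

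The combination against anti-PD-1 alone gave 0 of 6 measured members higher and 4 lower, where 24.1% of 8711 measured genes were higher and 12.4% lower. The lower members had log2 ratios of -1.43 (-1.55 to -1.31) for Gzmf, -1.28 (-1.47 to -1.09) for Gzmc, -0.80 (-0.98 to -0.62) for Gzmk and -0.76 (-0.81 to -0.71) for Gzmb. Prf1 stood at -0.58 (-0.66 to -0.49), short of 1.5-fold, and joined the lower members relative to the median gene at 0.13, where 18.3% of genes were higher and 17.3% lower. Gzma stood at 0.14 (0.05 to 0.22), or -1.31 without the top cell of each library, and without these cells 6 of 6 members were lower. Gzmd (-1.10) and Gzme (-1.23) were not measured by the rule. Mki67-positive cells made up 90.7% of the combination gate and 35.7% of the anti-PD-1 gate. Within Mki67-positive cells alone, 4 members were again lower, with Gzmb at -0.67 and Gzmf at -1.22.

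The combination against ATT-I gave 1 member higher, Gzmb at 0.75 (0.63 to 0.87), and 1 lower, Gzmc at -0.97 (-1.26 to -0.67), among 6 measured members, where 24.4% of 8765 measured genes were higher and 11.3% lower. Relative to the median gene, at 0.18, Gzmb no longer reached 1.5-fold, and 15.9% of genes were higher and 17.1% lower. The Gzmc ratio was -0.58 without the top cell of each library, short of 1.5-fold, 0.16 by the mean over cells and 0.92 without the 5% of cells with the most UMIs. Prf1 (-0.08, -0.25 to 0.09) and Gzmk (-0.15, -0.48 to 0.20) did not differ beyond counting error. Prf1 was at 0.51 by the mean over cells and at 0.55 without the 5% of cells with the most UMIs. Gzma stood at 0.35 (0.17 to 0.54), or -0.53 without the top cell of each library and -1.25 without that 5%. Gzmd (2.37) and Gzme (2.23), not measured by the rule, rest on 10 and 6 UMIs in single ATT-I cells.

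Over all cells the order of the libraries was turned for the chromosome 14 group. Gzmc stood at 22.3 per 10000 in vehicle, 2.05 with anti-PD-1, 6.66 with ATT-I and 0.881 with both agents, and Gzmd at 5.58, 0.717, 0.737 and 0.279. In vehicle, the 17 NK-gate cells were 10.97% of the cells but held 95.0% of the Gzmc, 99.3% of the Gzmd, 98.6% of the Gzme and 92.4% of the Gzmf UMIs. The NK gate made up 0.310% of cells in anti-PD-1 and held 20.6% of its Gzmc and 5.86% of its Gzmd UMIs there. With ATT-I it was 1.35% of cells, and with both agents 0.5025%. The share of NK-gate cells cannot be told apart from the treatment with 1 library per arm.

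Within the NK gate, Gzmc was near the same level in vehicle (116.1, 113.3 to 118.9) and ATT-I (118.0, 4 cells) and at 99.7 in anti-PD-1. Gzmf was 28.7 in vehicle and 1.52 in anti-PD-1, a log2 ratio of -4.24 (-4.60 to -3.89), and Gzmd was 30.3 and 9.89. Gzma was 4.71 in vehicle and 26.1 in anti-PD-1, a log2 ratio of 2.47, while Prf1 (7.54 and 7.81) and Gzmb (30.9 and 37.4) were close. Gzmk was at 0 in vehicle NK cells, where 3 UMIs would be 0.0530 per 10000. With 17 and 39 cells, a few cells can decide these values.

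**Figure D5:**
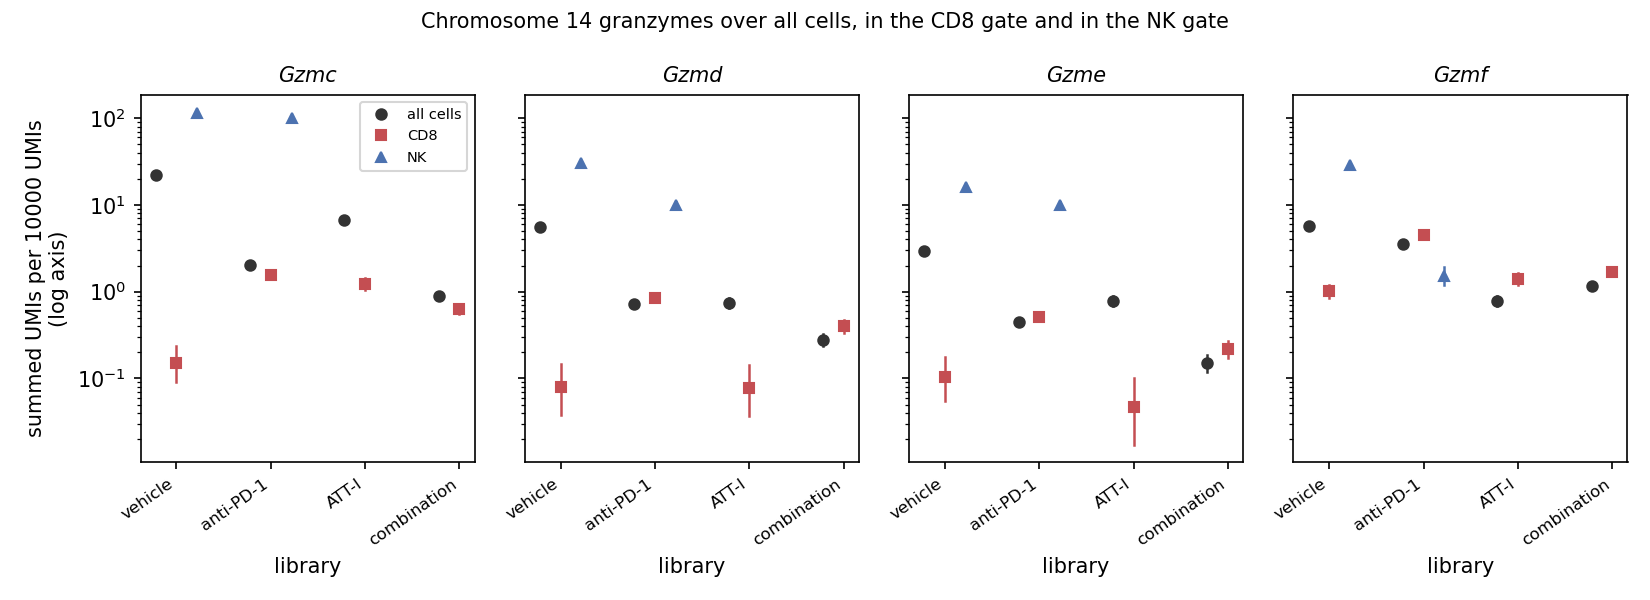
Summed UMIs per 10000 UMIs (log axis) of Gzmc, Gzmd, Gzme and Gzmf over all cells, in the CD8 gate and in the NK gate of each library, with exact Poisson 95% intervals; NK gates under 10 cells are not drawn. Over all cells Gzmc is highest in vehicle (22.3), and within the CD8 gate in anti-PD-1 (1.54).

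Foxp3-negative CD4 cells carried Gzmc in all 4 libraries, and outside the anti-PD-1 library they held few UMIs of Gzmd, Gzme and Gzmf. Gzmc stood at 5.44 per 10000 in vehicle, 2.47 with anti-PD-1, 4.26 with ATT-I and 3.22 with both agents. At 3000 UMIs per cell it was found in 24.1%, 14.99%, 10.5% and 28.2% of these cells. Few cells held most of it, since 80% of its UMIs lay in 3 of 55, 30 of 947, 4 of 90 and 5 of 39 cells, and without the top cell the levels were 3.58, 2.23, 2.73 and 2.52. Gzmd had 1, 215, 0 and 0 UMIs in these cells, Gzme 0, 225, 0 and 0, and Gzmf 2, 836, 4 and 0, while Prf1 had 1, 292, 0 and 6. In vehicle, ATT-I and the combination, 13, 11 and 11 such cells had UMIs of exactly 1 of the 4 genes at 3000 UMIs per cell and 0 had UMIs of more. In anti-PD-1, 232 of 894 cells had UMIs of 1 of the 4 genes, 35 of 2, 4 of 3 and 3 of all 4. In anti-PD-1, Gzmc was at 1.02 in Mki67-positive and 3.40 in Mki67-negative cells, or 0.851 and 3.005 without the top cell. In vehicle it was at 6.07 and 4.17, but 1 cell held 84.3% of the 83 UMIs of the Mki67-negative cells, whose level without it was 0.678. NK markers summed to 0.162 to 0.334 in these cells of vehicle, ATT-I and the combination, with Ncr1 and Klrb1c at 0, and to 1.56 in anti-PD-1. Epithelial tumour markers summed to 4.15 in these cells of ATT-I and to at most 0.167 in those of the other arms, and their part in the Gzmc values was not tested.

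Regulatory T cells carried Gzmb in every library, with Foxp3-positive CD4 cells at 3.21 per 10000 in vehicle, 8.58 with anti-PD-1, 7.37 with ATT-I and 2.18 with both agents. Anti-PD-1 and ATT-I stood above vehicle and the combination. In vehicle, 1 cell held 46.2% of the Gzmb UMIs, against 38.5% with ATT-I, 30% with both agents and 5.47% with anti-PD-1. Without the top cell the levels were 1.88, 8.13, 4.98 and 1.625 in the order first given, and the ranking stayed. Mki67 was found in 94.7%, 36.4%, 50% and 65.4% of the cells, so its share moves with the ranking. The median cell held 15861, 6771, 11304 and 23344 UMIs, so depth moves with the ranking as well. Among Mki67-positive cells without the top cell, Gzmb stood at 1.95, 5.06, 2.42 and 1.62. Prf1 in all Foxp3-positive CD4 cells was 0.0809, 0.484, 0.169 and 0.160, and Gzma, Gzmd, Gzme, Gzmf and Gzmk were each at or under 0.330. Gzmb in Foxp3-negative CD4 cells was 0.450 in vehicle, 3.38 with anti-PD-1, 1.05 with ATT-I and 4.32 with both agents, where 1 cell held 80.1% of the UMIs and the level without it was 0.914.

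Other genes of the granule pathway were read from a list of 24, of which 23 were in the table. Against vehicle, anti-PD-1 gave 5 of 20 measured genes higher and 2 lower in the CD8 gate, with a median log2 ratio of 0.29 where the median of all genes was -0.30. Relative to the median gene the counts were 11 higher and 1 lower. Of all measured genes, 10.6% were higher and 34.7% lower, or 22.4% and 21.3% relative to the median gene. Nkg7, a granule membrane protein needed for degranulation, stood at 28.6 against 13.4 per 10000 (1.09), Ctsw, a lysosomal cysteine protease of cytotoxic cells, at 5.49 against 3.23 (0.77) and the serpin gene Serpinb6a at 1.34 against 0.479 (1.48). Serpinb6b (-0.90), Rab27a, a GTPase of granule docking (-0.87), and Serpinb9, which encodes an inhibitor of granzyme B (-0.49), were the lowest. Genes for granule packing and enzyme activation differed less. Srgn, the granule proteoglycan, was at 0.06 (-0.02 to 0.15), and Ctsc, which activates granzymes by removing their propeptide, was at 0.11 (-0.14 to 0.38).

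Against anti-PD-1, the combination gave 4 of 21 measured granule genes higher and 5 lower, with a median of -0.28 where all genes had 0.13 and 24.1% of them were higher and 12.4% lower. Ctsw (-0.83), Nkg7 (-0.77) and the fusion protein gene Stxbp2 with the activating receptor gene Klrk1 (both -0.61) were lowest. Serpinb9 (1.12, 1.01 to 1.22), Serpinb6b (0.88) and the granule fusion gene Stx11 (0.82) were highest. Serpinb9 stood at 1.41 in vehicle, 1.01 with anti-PD-1, 0.940 with ATT-I and 2.20 with both agents, so the combination was highest in this inhibitor gene. ATT-I against vehicle gave 3 of 20 higher and 1 lower (median 0.22), where 7.82% and 34.4% of all genes were, led by Serpinb6a (0.92), Vamp7 and Lamp1 (both 0.60), with Serpinb9 (-0.59), Serpinb6b (-0.52) and Lamp2 with Tnfsf10 (both -0.51) lowest. The combination against vehicle gave 4 of 21 higher and 0 lower (median 0.02), where 6.62% and 20.9% of all genes were, led by Stx11 (1.34), Serpinb6a (1.27) and Serpinb9b (0.91), with Lamp2 (-0.46), Klrk1 (-0.32) and Stxbp2 (-0.25) lowest. Against ATT-I, the combination gave 3 of 21 higher and 3 lower (median 0.02), where 24.4% and 11.3% of all genes were, led by Serpinb9b (1.30), Serpinb9 (1.22) and Stx11 (0.94), with Vamp7 (-0.82), Stxbp2 (-0.78) and Ctsw (-0.59) lowest. Gzmg, which has the shared upstream run, was found at 0.142 in the anti-PD-1 CD8 gate and 2.17 in its NK gate, and with 0 UMIs in the CD8 gates of vehicle, ATT-I and the combination, where 3 UMIs would be 0.0240, 0.0231 and 0.00821. Gzmm was found at 0.0452 in the anti-PD-1 CD8 gate, and Gzmn was not analysed here.

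Of 12 regulators known to act on granzyme and perforin genes or on effector differentiation, 12 were measured in the CD8 gate. Against vehicle, anti-PD-1 gave 1 higher and 6 lower with a median of -0.60, and 1 higher and 3 lower relative to the median gene, where 34.7% of all genes were lower, or 21.3% relative to it, so the latter count is near the share of all genes. Batf, an AP-1 factor, was at 0.93 (0.44 to 1.47), and Bach2 (-1.57), Prdm1 (-1.34) and Irf4 (-1.21), a repressor of effector fate and 2 factors of effector differentiation, were lowest. Tbx21 (-0.52), Eomes (-0.58) and Runx3 (-0.63), whose products bind cytotoxic genes, were at -0.23, -0.28 and -0.33 relative to the median gene and so within 1.5-fold of it. The combination against anti-PD-1 gave 5 higher and 0 lower with a median of 0.34, where 24.1% and 12.4% of all genes were, led by Bach2 (2.31), Irf4 (1.98) and Zeb2 (1.51). Tbx21 was at 0.19 (-0.02 to 0.39) and Eomes at 0.00 (-0.26 to 0.25) in that contrast. Against vehicle, ATT-I gave 2 higher and 6 lower (median -0.57, against 7.82% and 34.4% of all genes), with Eomes at -1.86, and the combination gave 5 higher and 1 lower (6.62% and 20.9% of all genes), with Tcf7 at -1.22. Against ATT-I, the combination gave 5 higher and 1 lower (24.4% and 11.3% of all genes), with Zeb2 at 1.46 and Tcf7 at -1.92.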

How the data were processed

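The deposited values were made by the authors on a natural log scale. Per the submitters' processing notes, Cell Ranger, Seurat and genome build mm10 were used, and versions, parameters and cell filters are not given in the sources used here. In each library, all values were read as ln(1 + UMIs per 10000), counted within a cell, minus 1 constant for its library (0.2471, 0.2485, 0.1532 and 0.2254 for vehicle, anti-PD-1, ATT-I and both agents), with negative results set to 0. With it, 100% of non-zero values came within 0.02 of a whole UMI, and these whole UMIs were used. In the deepest cells the subtraction sets single UMIs to 0, which touched 21, 37, 0 and 37 cells in that order. All per-sample columns were used, all cells were kept (the fewest genes in a cell were 593) and no doublet caller was run. Leaving out the 5% of cells with the most UMIs is an alternative.

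Levels have exact Poisson 95% intervals, shares exact Clopper-Pearson intervals and ratios exact conditional binomial intervals. UMIs are counted molecules, and all of these cover counting error only. A count of 0 takes a floor of 3 UMIs. For shares and sharing, each cell was thinned to 3000 UMIs, and shallower cells were left out (154 in the anti-PD-1 CD8 gate). With 1 library per arm no test was made. The script was tested on simulated data. Similar genes were the 5 non-members of highest r among genes found in at least 2% of cells, and from the granule list the 3 highest and 3 lowest ratios of a comparison are named with genes at their role. The members, gates and lists were chosen with earlier results of these data known. Genes outside the lists that are named beside Gzmc-, Gzmd-, Gzmk- and Gzma-carrying cells were chosen after their values were seen. Gene positions came from GENCODE vM21, upstream sequences from RefSeq, where all 8 members matched, and the transcript table from GENCODE. Scripts ran in Python 3.11.15 with scipy 1.17.1, numpy 2.4.6, matplotlib 3.10.9 and pandas 2.3.3.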

Additional observations from a re-analysis of the deposited data

Results flagged for a closer look

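In 8 cases a member's log2 ratio between libraries had opposite signs in the CD8 gate and in another gate, each with a fold of at least 1.5 and an interval away from 0 in both gates. None of these differences between gates was tested, since each arm has 1 library. Without the cell of each library that held the most UMIs of the gene, the signs stayed opposite for all but Gzmk.

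Anti-PD-1 against vehicle differed between the CD8 gate and the NK gate (39 and 17 cells) for 3 genes of chromosome 14. Gzmf stood at -4.24 (-4.60 to -3.89) in the NK gate and 2.17 in the CD8 gate, Gzmd at -1.61 (-1.77 to -1.46) and 3.42, and Gzme at -0.69 (-0.86 to -0.53) and 2.29. Without the top cells the NK-gate values were -6.32, -1.01 and -0.89. In Foxp3-negative CD4 cells (947 and 55 cells), the same comparison gave -1.14 for Gzmc, against 3.34 in the CD8 gate, and -0.63 for Gzmk, against 0.99. In vehicle, 1 of the 55 cells held 86.7% of the 30 Gzmk UMIs, and without the top cells the Gzmk ratio was 2.01, the same sign as in the CD8 gate, and the Gzmc ratio -0.69.

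The combination against vehicle gave -0.75 for Gzmc in Foxp3-negative CD4 cells (39 and 55 cells), or -0.51 without the top cells, against 2.07 in the CD8 gate. In Foxp3-positive CD4 cells it gave -1.31 for Gzmf, against 0.74, from 0 UMIs in the combination and 4 in vehicle, so this value rests on the floor of 3 UMIs and was -0.40 without the top cells. The combination against ATT-I gave -1.76 (-2.08 to -1.43) for Gzmb in Foxp3-positive CD4 cells (26 and 18 cells), against 0.75 in the CD8 gate.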

How the results depend on the processing

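No paired analysis was possible because each arm has 1 library. Of the single-member ratios under the alternatives, 212 moved by less than counting error, 134 moved by more while staying on their side of 0 or starting within 1.5-fold, and 14 that started at 1.5-fold or more changed sign. A further 27 sign changes, already counted among the first 2 groups, were of ratios that started within 1.5-fold. Over all deposited cells, anti-PD-1 against vehicle had 2 members higher and 2 lower, ATT-I against vehicle 0 and 3, the combination against vehicle 2 and 2, and the combination against ATT-I 2 higher. Of ratios at 1.5-fold or more, signs turned there for Gzmc (-3.45), Gzmd (-2.96), Gzme (-2.72) and Gzmf (-0.69) in anti-PD-1 against vehicle, for Gzmc (-1.75) in ATT-I against vehicle, for Gzmc (-4.66), Gzmd (-4.32), Gzme (-4.29) and Gzmf (-2.27) in the combination against vehicle, and for Gzmd (-1.40) and Gzme (-2.37) in the combination against ATT-I. Of ratios within 1.5-fold, 7 turned there, among them Gzmf (0.48 to -2.86) and Prf1 (0.39 to -0.40) in ATT-I against vehicle, Gzmb (0.30 to -0.35) and Prf1 (0.32 to -0.16) in the combination against vehicle and Gzma (0.14 to -0.14) in the combination against anti-PD-1. ATT-I against vehicle had 4 members higher in Mki67-positive cells, 5 relative to the median gene, 4 in cells of at least 10000 UMIs and 2 lower without the 5% of cells with the most UMIs. The combination against ATT-I had 0 higher relative to the median gene, 2 higher and 0 lower by the mean over cells, 3 higher with no filter on low genes, 3 higher without the 5% of cells with the most UMIs and 0 lower without the top cell. Gzmc in that contrast was 0.16 by the mean over cells and 0.92 without the 5%, and Gzmd in the combination against anti-PD-1 was 0.06 without the 5%. The summed level of the members in the anti-PD-1 CD8 gate was 31.6. It was 31.04 under a gate of at least 1 UMI of Cd8a and Cd8b1 together and no Cd4. By the mean over cells it was 27.4, and without the 5% it was 27.9. In its Mki67-positive cells, 30.8 became 27.7 by the mean over cells, 30.1 with Mki67 at 2 UMIs and 26.8 without the 5%. The share of Gzmd cells with Gzme, 38.8%, was 56.0% at 2 UMIs and 32.7% in Mki67-negative cells. The 4 lower members of the combination against anti-PD-1 were 3 to 6 over the alternatives. The choices of cells of at least 10000 UMIs, of leaving out the top cell and of leaving out Ncr1-positive cells were made after seeing the data. At 48 vehicle cells, Gzmc, Gzmd and Gzme rest on 19, 10 and 13 UMIs in the CD8 gate, which limits every ratio to vehicle.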

Other observations

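Among the 77 cells of no gate in the ATT-I library, 1 cell held 64.7% of the 666 Gzmc UMIs, 1 held all 73 Gzmd UMIs and 1 held all 59 Gzme UMIs. Gzmc stood at 12.2 UMIs per 10000 in these cells and at 4.48 without its top cell, against 0.0322 in cells of no gate in vehicle (16 cells), 1.94 in anti-PD-1 (2798 cells, 1.42 without the top cell) and 0.0816 in the combination (15 cells). Summed NK markers in these ATT-I cells were 11.8 per 10000, against 3.51 to 6.33 in cells of no gate in the other libraries, with T cell markers at 40.2. Haemoglobin transcripts summed to 155.5 in them, against 0.0322 to 0.940 in the others.

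In the anti-PD-1 library Srgn, the granule proteoglycan gene, was higher in Foxp3-positive (20.3) and Foxp3-negative CD4 cells (16.1) than in the CD8 gate (10.4) and the NK gate (14.1). Nkg7 had the opposite order, at 28.6 in the CD8 gate, 19.9 in the NK gate, 9.64 in Foxp3-negative and 7.76 in Foxp3-positive CD4 cells. Stx11 was 0.754 and 0.773 in Foxp3-positive and Foxp3-negative CD4 cells and 0.216 in the CD8 gate.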
